A study of Homo sapiens with 6 samples.

Results

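The tubulin isotypes examined here are 10 human genes that encode the alpha and beta subunits of microtubules: TUBA1A, TUBA1B, TUBA1C and TUBA4A on the alpha side, and TUBB, TUBB2A, TUBB2B, TUBB3, TUBB4B and TUBB6 on the beta side. Their probe sets were found by gene symbol in the array's platform annotation, by a rule that uses no measured value, although the genes were proposed with earlier results of these data known. A named probe set was found for 9 of the 10 genes, 1 each, among 21448 probe sets in all. TUBB3, the beta isotype most often discussed in connection with taxane resistance, had no probe set under its symbol among those used and was not analysed here. Transcript levels were compared between HS578T cells stably transfected with EP300 cDNA in the expression vector pcDNA 3 and HS578T cells stably transfected with pcDNA 3 alone. HS578T is an established line from a human breast carcinoma, with a mesenchymal rather than epithelial look, and EP300 encodes an acetyltransferase of histones and other proteins that assists transcription factors. All cells were kept under G418, a selection drug to which the vector gives resistance, and each line was a pool of many transfected clones and not a single clone. Each condition had 3 cultures, each measured on 1 Affymetrix whole-transcript array. The design text calls the cultures independent and leaves unstated whether they trace back to separate transfections, so the p-values cover the spread between cultures and may not cover that between transfections.

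Microtubules are hollow polymers of alpha and beta tubulin dimers that build the mitotic spindle and carry intracellular transport. Each subunit is encoded by several genes whose proteins are close in sequence and differ mainly in the acidic tail at the carboxyl end, where many modifying enzymes and motor proteins act. Taxanes such as paclitaxel bind beta tubulin inside the polymer and hold it in the assembled state, which blocks mitosis, and the mix of beta isotypes is one of the properties studied in taxane response. Tubulin messenger RNA is also subject to autoregulation, in which free tubulin dimers speed the decay of the messages being translated, with TTC5 as the factor that recognises the nascent tubulin chain.

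The 6 arrays had medians between 4.456 and 4.497 on the log2 scale of the deposited values, and the lower quartile of the arrays lay between 3.468 and 3.495. Over all probe sets Pearson correlations were 0.9784 to 0.9802 among EP300 arrays, 0.9786 to 0.9807 among empty-vector arrays and 0.977 to 0.9807 between the groups. EP300 transcript, the check on the labels, was not analysed here, since its symbol is on no named probe set. The mesenchymal markers VIM and CDH2 were at 18.60 and 12.82 in EP300 cultures and at 18.60 and 13.12 in empty-vector cultures (log2 means), while the epithelial markers CDH1 and CLDN4 were at 3.25 and 2.85 in EP300 cultures and at 2.54 and 2.97 in empty-vector cultures. CLDN4 was below the lower quartile on all 6 arrays and CDH1 on 5. The keratin genes KRT8 and KRT18, also epithelial markers, lay above the median of all 6 arrays, at 7.33 and 10.02 in EP300 cultures and at 6.96 and 11.13 in empty-vector cultures.

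No tubulin isotype passed the test, and 7 of the 8 isotypes that varied between arrays had a lower mean in EP300 cultures, with differences between -0.59 and 0.19 on the log2 scale. The test was limma's moderated test fitted to all 21448 probe sets, with Benjamini-Hochberg adjustment over all of them and a threshold of 0.05. It called 0 of the 9 isotype probe sets and 0% of all probe sets, and the smallest adjusted p of an isotype was 0.748. A difference below 0 was also found for 49.7% of all probe sets. The median difference of the 9 isotypes was -0.13, against 0.000982 over all probe sets. At an unadjusted limma p under 0.05 there was 1 isotype, TUBA1A, and it was lower in EP300 cultures. Over all probe sets 6.52% had such a p, and 3.07% had it with a lower EP300 mean. All EP300 arrays lay below all empty-vector arrays for 3 isotypes, TUBA1A, TUBA1C and TUBB, where 5.91% of all probe sets had that order. With quantile normalization that count was 1, TUBA1A. The count of 7 lower isotypes was 4 without EP300 replicate 1 or without empty-vector replicate 2. With RNA from whole cultures, fewer cells expressing a gene and less RNA per cell cannot be told apart.

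**Figure D1:**
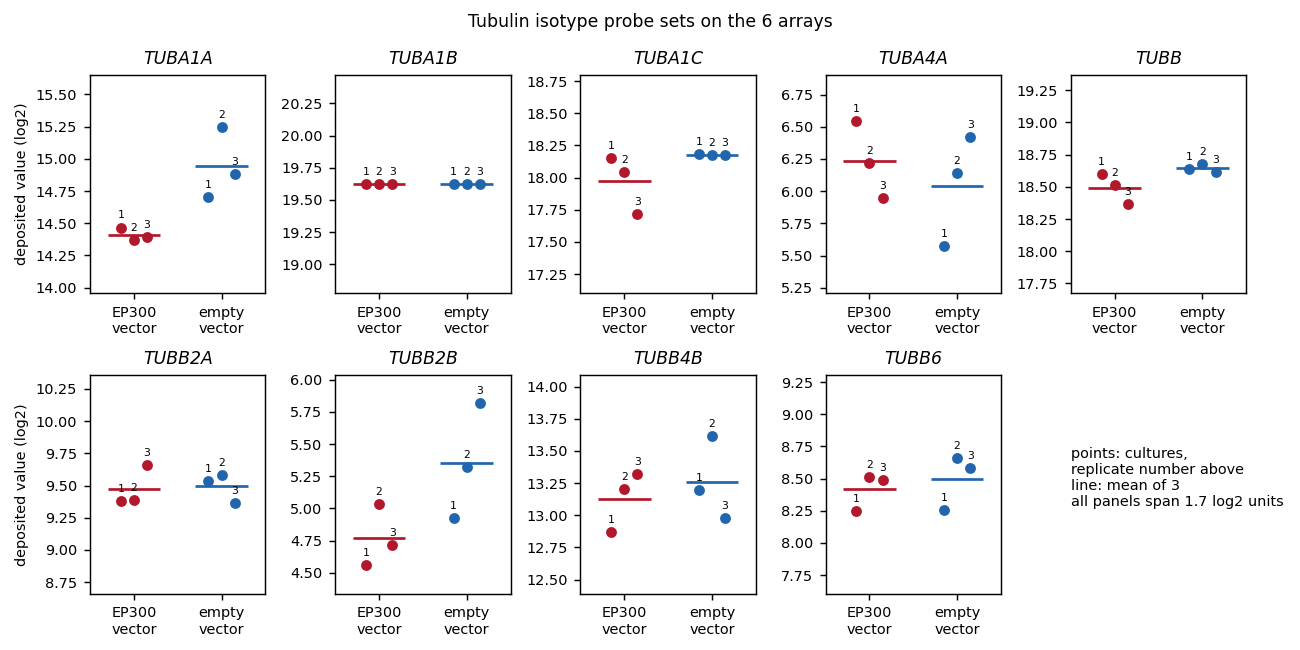
Deposited log2 values (vertical axes) of the 9 tubulin isotype probe sets on each array, with EP300-vector cultures in red on the left of each panel and empty-vector cultures in blue on the right. Points are single cultures with their replicate number, and lines are means of 3. Every panel spans the same log2 range, so distances can be compared between panels but levels cannot. TUBA1A, TUBA1C and TUBB show no overlap between the groups, and TUBA1B does not vary.

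Among the alpha isotypes, TUBA1A had the clearest separation. TUBA1A encodes an alpha tubulin that is abundant in developing neurons and is expressed in many cell lines. Its values were 14.47, 14.37 and 14.39 in EP300 cultures, against 14.70, 15.24 and 14.88 in empty-vector cultures (log2). The EP300 values lay close together, all 3 lay below the lowest empty-vector value with a gap of 0.24, and the empty-vector cultures were more spread. The means were 14.41 ± 0.05 in EP300 and 14.94 ± 0.27 in empty-vector cultures (SD, n = 3 each), a fold of 0.69 for EP300 over empty vector. The log2 difference was -0.54 ± 0.22 SE with a 95% interval from -1.03 to -0.04, an unadjusted limma p of 0.0356 and an adjusted p of 0.748. By that p it ranked 1017 among all probe sets, and an exact permutation test over the arrays (two-sided) gave p = 0.1, which 3 against 3 arrays cannot go below. Without empty-vector replicate 2, the highest array, the difference was -0.39.

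TUBA1B, a broadly expressed alpha isotype that lies next to TUBA1A on chromosome 12, read 19.62 on all 6 arrays. It was 1 of 19 probe sets with the same value on every array within a tolerance of 0.001, and it gives no information on a difference. The highest deposited value was 19.93. VIM, which was also constant, read 18.60, so the constant probe sets did not share 1 upper limit.

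TUBA1C, the third gene of this chromosome 12 cluster, also encodes a broadly expressed alpha isotype. It read 18.15, 18.04 and 17.72 in EP300 cultures, against 18.18, 18.17 and 18.17 in empty-vector cultures. The groups did not overlap, but EP300 replicate 1 lay within 0.02 of the nearest empty-vector value and most of the difference came from EP300 replicate 3. The log2 difference was -0.21 ± 0.21 SE (limma adjusted p = 0.904), and -0.08 without EP300 replicate 3. With quantile normalization it was -0.10, and the groups then overlapped. The difference between TUBA1A and TUBA1C shifted by -0.33 (EP300 minus empty vector), with an exact two-sided permutation p of 0.2 that stayed at 0.2 when adjusted over 2 such pairs, both chosen after their values were seen.

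TUBA4A, an alpha isotype on chromosome 2 that is known from platelets and neurons, was the 1 isotype with a higher EP300 mean. It read 6.54, 6.22 and 5.94 in EP300 cultures, against 5.57, 6.14 and 6.42 in empty-vector cultures. The ranges overlapped over most of their length, and the log2 difference of 0.19 ± 0.28 SE (limma adjusted p = 0.929) became -0.05 without empty-vector replicate 1.

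On the beta side, TUBB encodes the beta isotype found in nearly all dividing cells. It read 18.60, 18.51 and 18.37 in EP300 cultures, against 18.64, 18.68 and 18.61 in empty-vector cultures. Every EP300 value was lower, but by as little as 0.01 between the nearest pair. The log2 difference was -0.15 ± 0.20 SE with a 95% interval from -0.60 to 0.30 (limma adjusted p = 0.926), and it was -0.09 without EP300 replicate 3. With quantile normalization the groups overlapped. Limma's SE draws on the variance of all probe sets, and it was 0.19 even for TUBA1B, which did not vary. The SE, interval and p of TUBB and of TUBA1C thus do not measure their own spread alone.

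TUBA1B, TUBA1C and TUBB lay in the highest range of the deposited values, with means above 18. Of 53 probe sets in that range, 18 did not vary at all, and the median SD between cultures of a group was 0.04 (log2), against 0.34 for the 6546 probe sets between 4 and 6. The median absolute difference between the groups was 0.03 in the highest range and 0.20 over all probe sets. The pooled SD was 0.16 for TUBA1C and 0.09 for TUBB, both above the median of their range. Their absolute differences, 0.21 and 0.15, were also above the median of that range. Whether a compressed scale at high values reduced the differences of these isotypes was not tested.

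**Figure D2:**
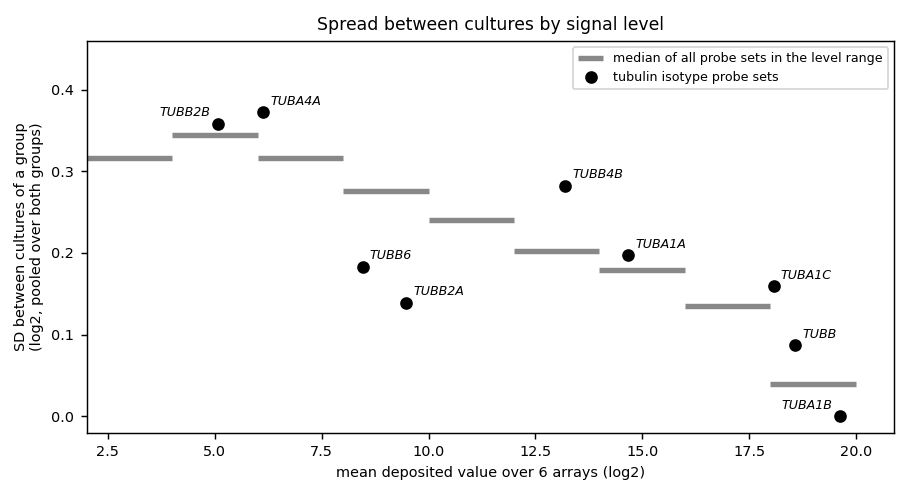
SD between cultures of a group (vertical axis, log2, pooled over both groups) against the mean deposited value over 6 arrays (horizontal axis, log2). Black points are the 9 tubulin isotype probe sets, and grey bars are the median of all probe sets in each level range. The bars decline towards the highest values, from 0.34 between levels 4 and 6 to 0.04 above 18, where TUBA1B, TUBA1C and TUBB lie.

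TUBB2A and TUBB2B are neighbours on chromosome 6 that encode nearly identical beta isotypes, both prominent in neurons. TUBB2B read 4.56, 5.03 and 4.72 in EP300 cultures, against 4.93, 5.33 and 5.82 in empty-vector cultures. EP300 replicate 2 lay above empty-vector replicate 1, so the groups overlapped. TUBB2B had the largest difference of the isotypes, -0.59 ± 0.27 SE with a 95% interval from -1.19 to 0.02 (limma unadjusted p = 0.056, adjusted p = 0.775), and the exact two-sided permutation p was 0.2. It was -0.36 without empty-vector replicate 3. Its EP300 mean of 4.77 ± 0.24 was close to the array medians and its empty-vector mean was 5.36 ± 0.45 (SD, n = 3 each). The signal over background is unknown in that range, and no fold is given.

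TUBB2A read 9.38, 9.39 and 9.66 in EP300 cultures, against 9.54, 9.58 and 9.36 in empty-vector cultures. The groups were interleaved, and the log2 difference was -0.02 ± 0.21 SE with a 95% interval from -0.48 to 0.44 (limma adjusted p = 0.991). The interval does not exclude a change of the size seen for TUBA1C or TUBB. The difference between TUBB2B and TUBB2A shifted by -0.57 (EP300 minus empty vector), with an exact two-sided permutation p of 0.2, also after adjustment over the 2 pairs. With 3 against 3 arrays this test cannot go below 0.1, so it does not settle whether the neighbours differ.

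The promoters of TUBA1A, TUBB2B and TUBB2A are shown because the first pair had the largest differences among the isotypes and TUBB2A, the neighbour of TUBB2B, had the smallest of those that varied. Each run gives the 250 bases before the transcript start in the 5′ to 3′ direction of the gene, from RefSeq sequences on GRCh38.p14. They lie at chr12:49189081-49189330, chr6:3227654-3227903 and chr6:3157545-3157794, all on the minus strand. Capitals mark the CCAAT box (CCAAT), the GC box (GGGCGG) and the cAMP response element (TGACGTCA), searched on both strands. The last is the site of CREB, a factor to which EP300 and its paralog CREBBP bind as co-activators.
TUBA1A: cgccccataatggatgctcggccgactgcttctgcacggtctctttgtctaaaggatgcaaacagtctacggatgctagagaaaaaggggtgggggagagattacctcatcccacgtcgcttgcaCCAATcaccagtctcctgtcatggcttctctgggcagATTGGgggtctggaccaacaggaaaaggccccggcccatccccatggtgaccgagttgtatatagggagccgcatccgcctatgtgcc
TUBB2B: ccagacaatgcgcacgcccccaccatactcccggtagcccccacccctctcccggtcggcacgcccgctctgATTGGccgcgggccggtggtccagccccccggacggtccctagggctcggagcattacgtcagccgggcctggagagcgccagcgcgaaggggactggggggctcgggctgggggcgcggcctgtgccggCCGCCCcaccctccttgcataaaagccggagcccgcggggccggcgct
TUBB2A: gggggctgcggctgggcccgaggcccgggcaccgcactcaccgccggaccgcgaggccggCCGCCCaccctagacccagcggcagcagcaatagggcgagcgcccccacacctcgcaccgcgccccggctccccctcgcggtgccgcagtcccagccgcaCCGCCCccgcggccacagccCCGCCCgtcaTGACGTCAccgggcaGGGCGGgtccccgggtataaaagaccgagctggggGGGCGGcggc
The TUBA1A window held 2 CCAAT boxes and no GC box. The TUBB2B window held 1 CCAAT box and 1 GC box. The TUBB2A window held 5 GC boxes, 1 full cAMP response element and no CCAAT box. Only exact matches were counted, so partial or variant sites, such as ttacgtca in the TUBB2B window, were not. The counts thus do not show that TUBB2A alone has a site of the CREB type. In a global alignment 140 of the 250 bases (56%) of the TUBB2B and TUBB2A windows were identical, and their GC contents were 75.2% and 79.2%, with 56.4% for TUBA1A. Over 35116 promoter windows of the same length, 32% held a CCAAT box, 42.6% a GC box and 1.6% a cAMP response element. Of the 15 windows listed for the 10 isotypes, which include alternative starts, 9 held a CCAAT box, 9 a GC box and 1 a cAMP response element. These matches describe the letters of the windows, and no binding was measured.

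The remaining beta isotypes showed overlapping groups. TUBB4B, a beta isotype of ciliated and many dividing cells, read 12.87, 13.20 and 13.32 in EP300 cultures, against 13.19, 13.61 and 12.98 in empty-vector cultures. Its log2 difference was -0.13 ± 0.24 SE (limma adjusted p = 0.945), and it was 0.05 without empty-vector replicate 2. TUBB6, a more divergent beta isotype of broad expression, read 8.25, 8.51 and 8.49 in EP300 cultures, against 8.25, 8.66 and 8.58 in empty-vector cultures. Replicate 1 was the lowest array of both groups for TUBB6, and the log2 difference was -0.08 ± 0.22 SE with a 95% interval from -0.57 to 0.40 (limma adjusted p = 0.967). The isotype transcripts are close in coding sequence and have processed pseudogenes, so part of a probe set's signal can come from a paralog, and such shared signal was not separated from a gene's own.

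**Figure D3:**
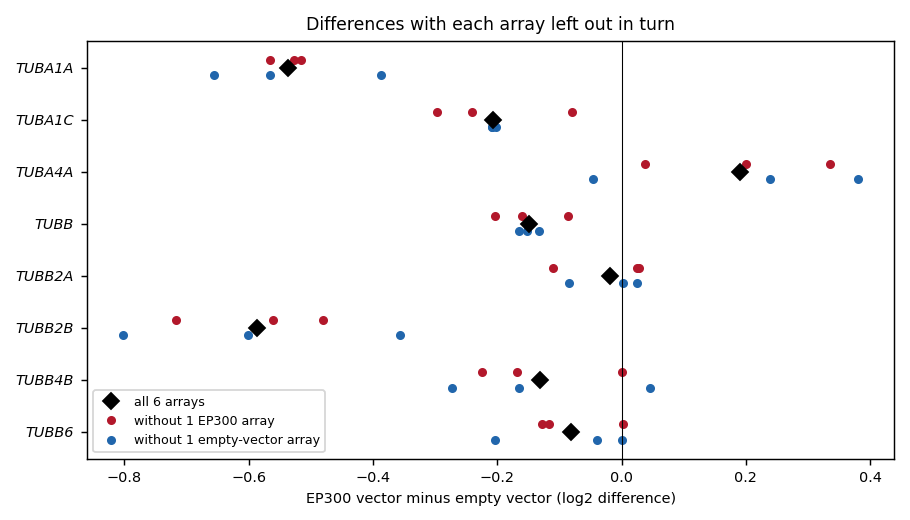
Log2 difference, EP300 vector minus empty vector (horizontal axis), of the 8 varying tubulin isotypes with all 6 arrays (black diamonds), without 1 EP300 array (red) and without 1 empty-vector array (blue). TUBA1A, TUBA1C, TUBB and TUBB2B stayed below 0 in every case, while TUBA4A, TUBB2A, TUBB4B and TUBB6 crossed 0.

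The other tubulin genes were read beside the isotypes. All 12 of the list had a probe set: the alpha genes TUBA3C, TUBA3D, TUBA3E, TUBA8 and TUBAL3, the beta genes TUBB1, TUBB4A and TUBB8, the gamma tubulins TUBG1 and TUBG2, which nucleate microtubules, and the centriolar delta and epsilon tubulins TUBD1 and TUBE1. None passed the adjusted threshold, 8 were lower (49.7% of all probe sets) and 4 higher in EP300 cultures, and the median difference was -0.12. For 2 of the 12, TUBB4A and TUBA3C, all EP300 arrays lay below all empty-vector arrays (5.91% of all probe sets). An unadjusted limma p under 0.05 with a lower EP300 mean was found for 2, TUBB4A and TUBA3D (3.07% of all probe sets). TUBB4A, a beta isotype known from brain, read 7.33, 6.92 and 6.66 in EP300 cultures, against 7.51, 7.62 and 7.67 in empty-vector cultures. The groups did not overlap, and the log2 difference was -0.63 ± 0.23 SE (limma unadjusted p = 0.0225, adjusted p = 0.746). TUBA3C, an alpha gene known from testis, read 5.93, 6.10 and 5.78 in EP300 cultures, against 6.51, 6.25 and 6.29 in empty-vector cultures, also without overlap (-0.42 ± 0.21 SE, limma adjusted p = 0.791). TUBA3D, which is nearly identical to TUBA3C, had means of 2.87 in EP300 and 3.42 in empty-vector cultures and was below the lower quartile on 4 arrays. Its groups overlapped (limma unadjusted p = 0.0415, adjusted p = 0.762). TUBB1, the beta isotype of platelets, differed by -0.50 ± 0.27 SE (limma adjusted p = 0.802). Its groups overlapped, and it was below the median on 3 arrays, a range where the signal over background is unknown. The gamma tubulins TUBG1 and TUBG2 differed by -0.04 and 0.17.

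**Figure D4:**
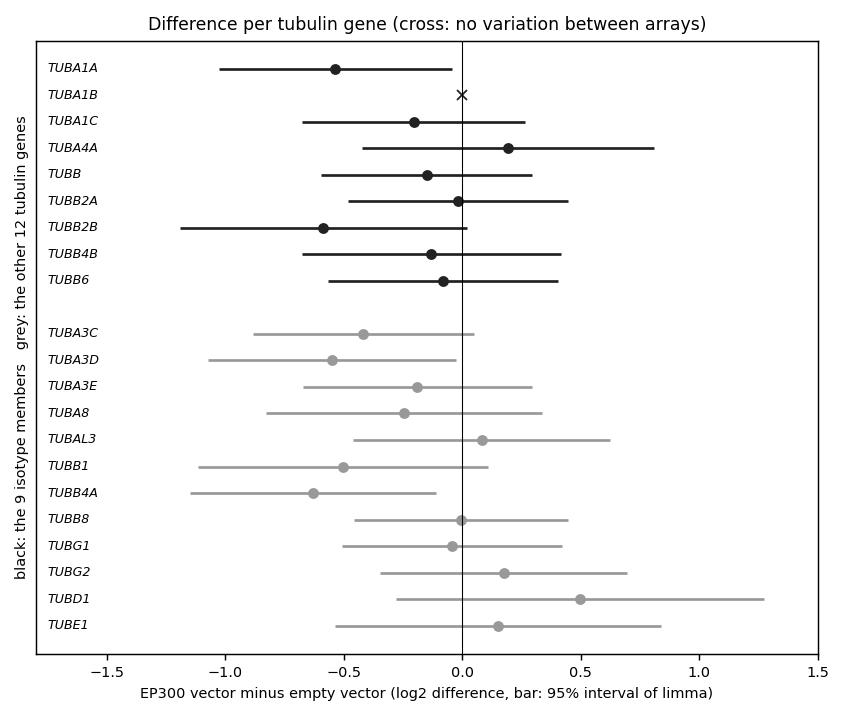
Log2 difference, EP300 vector minus empty vector (horizontal axis), for the 9 tubulin isotypes (black, upper block) and the other 12 tubulin genes (grey, lower block). Points are differences of means of 3 cultures, bars are limma's 95% intervals before any adjustment, and the cross marks TUBA1B, which did not vary. The intervals of TUBA1A, TUBA3D and TUBB4A do not reach 0, and none of these genes passed after adjustment.

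Genes of tubulin folding and autoregulation had a median difference above 0. The list held the tubulin cofactors TBCA to TBCE, which assemble the dimer, the related gene TBCEL and the small GTPase ARL2. It also held subunits of the chaperonin CCT and of prefoldin, and the autoregulation factor TTC5. Of its 22 genes 20 were measured. In EP300 cultures 15 were higher and 5 lower, with a median difference of 0.22, against 0.000982 over all probe sets, where 50.2% were higher. Without 1 array the median of the list ran from 0.14 to 0.20, while that of the isotypes was 0 without EP300 replicate 1 or without empty-vector replicate 2, and the difference between the lists was not tested. By limma 0 passed the adjusted threshold and 2 had an unadjusted p under 0.05, both higher, against 3.45% of all probe sets. These were TBCA, which captures folded beta tubulin, and TBCC, which helps release the finished dimer. TBCA read 10.05, 9.61 and 10.25 in EP300 cultures, against 9.48, 9.28 and 9.33 in empty-vector cultures. The groups did not overlap, with a log2 difference of 0.61 ± 0.23 SE (limma adjusted p = 0.748). TBCC read 5.98, 6.27 and 5.99 in EP300 cultures, against 5.68, 5.62 and 5.45 in empty-vector cultures, again without overlap (0.50 ± 0.21 SE, limma adjusted p = 0.756). The shares of all probe sets without overlap were 6.3% for higher and 5.91% for lower. ARL2 differed by -0.39 ± 0.26 SE and PFDN2, a prefoldin subunit, by 0.31 ± 0.24, and both overlapped between the groups. TTC5, the autoregulation factor, differed by 0.26 ± 0.24 SE (limma adjusted p = 0.895), and its groups overlapped. It was below the median on all 6 arrays and below the lower quartile on 3, so the median of the list does not describe autoregulation.

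Enzymes that modify tubulin tails and lysines had a median difference of 0.01 over 19 genes, 10 of them higher and 9 lower, and 0 had an unadjusted limma p under 0.05. TTLL12, a protein of the tubulin ligase-like family, differed by 0.67 ± 0.37 SE, TTLL7, a beta-tubulin polyglutamylase, by 0.32 ± 0.22, and AGTPBP1, a deglutamylase, by -0.51 ± 0.34. VASH1, a tubulin detyrosinase, was below the lower quartile on all 6 arrays. Microtubule-associated and plus-end proteins had a median of -0.09 over 24 genes, 10 higher and 14 lower. Of these NUMA1, a spindle pole protein, had an unadjusted limma p of 0.0309 (-0.65 ± 0.26 SE, adjusted p = 0.748). It was the 1 gene of the 24 with such a p under 0.05, where 3.07% of all probe sets had one with a lower EP300 mean. MAPRE2 and MAPRE1, which bind growing plus ends, differed by -0.61 ± 0.35 and 0.35 ± 0.23, and the microtubule stabiliser MAP6 by -0.50 ± 0.31. MAP6 was below the median on 3 arrays. Microtubule destabilisers and severing enzymes had a median of -0.15 over 12 genes, 4 higher and 8 lower (49.7% of all probe sets). In this list the depolymerising kinesins KIF18A and KIF2A differed by -0.41 ± 0.21 SE and -0.43 ± 0.23, and the severing enzymes FIGN and SPAST differed by 0.47 ± 0.31 and 0.46 ± 0.32. Members of the gamma-tubulin ring complex, the template for new microtubules, had a median of 0.08 over 8 genes. TUBGCP4 differed by -0.40 ± 0.25 SE, MZT2B by 0.31 ± 0.22, NEDD1 by 0.19 ± 0.24 and MZT1 by 0.08 ± 0.20. Among the destabilisers the groups did not overlap for 2 of 12 genes, KIF18A and KIF2A, both lower in EP300 cultures. The microtubule-associated list had 2 of 24 without overlap, CKAP2 and EML4, also lower (5.91% of all probe sets). TTLL7, 1 of 19 modifying enzymes, and MZT2B, 1 of 8 ring complex genes, were higher without overlap (6.3%). The gap between the groups was 0.0025 for KIF2A, 0.01 for MZT2B, 0.02 for EML4 and 0.03 for TTLL7. It was 0.08 for CKAP2 and 0.17 for KIF18A. By limma none of the genes in these 4 lists passed the adjusted threshold.

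**Figure D5:**
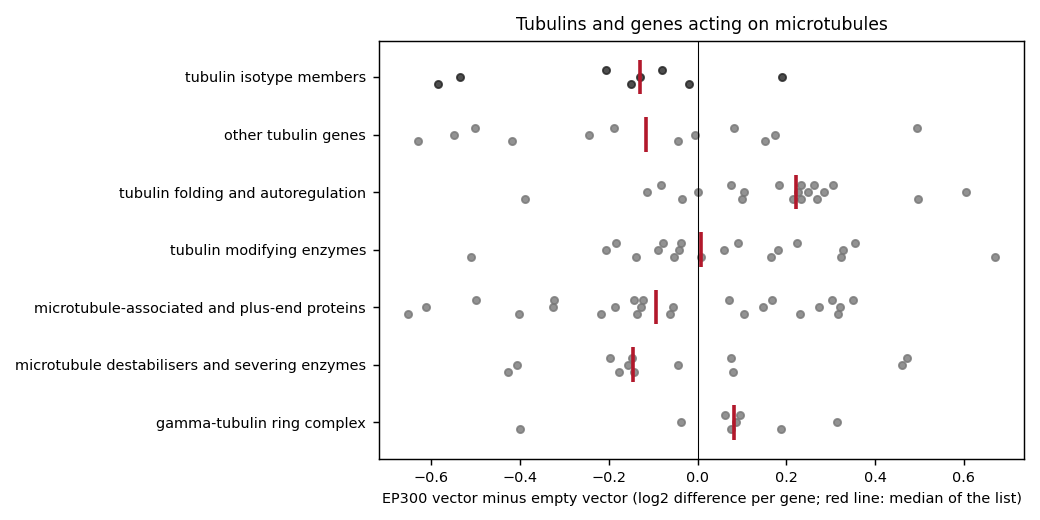
Log2 difference per gene, EP300 vector minus empty vector (horizontal axis), for the tubulin isotypes (top, black) and for 6 lists of related genes (grey). Each point is 1 probe set that varied, shifted up or down only for legibility, and red lines are list medians over all measured members. The isotypes have a median of -0.13 and the folding list a median of 0.22.

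Several of the isotypes are best known from neurons, so markers of neurons were read beside them. The 8 neuronal markers had mean log2 levels per array of 3.46 to 3.64 in EP300 cultures and 3.50 to 3.77 in empty-vector cultures, ranges that overlap and lie near the lower quartile of the arrays. Of these markers 6 were lower (49.7% of all probe sets) and 2 higher, and 0 had an unadjusted limma p under 0.05. The 8 mesenchymal markers had mean levels of 14.51 to 14.69 in EP300 cultures and 14.72 to 14.81 in empty-vector cultures, ranges that do not overlap. Of these markers 6 were lower (49.7% of all probe sets), 1 was higher and VIM was constant. The groups did not overlap for 4 of the lower markers (5.91% of all probe sets) and for the higher one, AXL (6.3%). The gap between the groups was 0.00088 for FN1, 0.06 for SPARC and CDH2, 0.14 for COL1A2 and 0.17 for AXL. SPARC read 19.93, the highest deposited value, in empty-vector replicates 2 and 3. COL1A2, which was lower, had an unadjusted limma p of 0.0451 (adjusted p = 0.765). It was the 1 mesenchymal marker with such a p under 0.05, where 3.07% of all probe sets had one with a lower EP300 mean. The part of these markers in the isotype values was not tested. Of the 8 epithelial and luminal markers 4 were higher and 4 lower. Among them KRT18 was lower on all EP300 arrays (5.91% of all probe sets), with a log2 difference of -1.11 ± 0.23 SE (limma adjusted p = 0.592). That difference was larger in size than that of any isotype, and the part of KRT18 in the isotype values was not tested. Of the 7 measured leukocyte markers 3 were higher and 4 lower, and of the 7 endothelial markers likewise 3 and 4.

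The mean of the 8 varying isotypes, each centred on its own mean over the arrays, was -0.10, -0.05 and -0.13 in EP300 cultures, against -0.08, 0.22 and 0.15 in empty-vector cultures. Empty-vector replicate 1 lay among the EP300 arrays, and the groups overlapped. Among 17563 other probe sets with a gene symbol, those most like this mean over the 6 arrays were of ZNF830, SNORD89 and CRADD, with Pearson correlations of 0.996, 0.9897 and 0.9892. A total of 129 of these 17563 probe sets had a correlation above 0.9. Over only 6 arrays unrelated values can also correlate this highly, and the number to be expected from them was not computed. The count and the named genes thus do not single out genes that follow the isotypes. The arrays share their groups, so the correlations are a description only.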

How the data were processed

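Per the labels' protocols, a Qiagen RNeasy extraction of 6 HS578T cultures gave the total RNA, and Affymetrix WT PLUS reagents were used for labelling. The authors made the deposited log2 values, 1 per probe set and array, with Partek 6.6, per the submitters' processing notes. That the scale is log2 was inferred from the range of the values. How the authors corrected background and normalized, and their genome build, is not given in the sources used here, and no detection calls were used. No columns were left out.

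Probe sets were named from the platform annotation (17709 of 21448 had a symbol). EP300 minus empty vector was fitted by limma 3.58.1 (lmFit and eBayes, R 4.3.3) with no filter and no block. The fit was first run on simulated data with shifts larger than any isotype difference. That run does not show whether changes of the isotypes' size can be detected. Errors are SD over 3 cultures or limma's moderated SE, which draws on the variance of all probe sets. The number of arrays limits the precision. Chromosomes, neighbours and promoters came from RefSeq tables (GRCh38.p14). Coordinates of probe sets are not given.

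The members, gene lists and marker lists were chosen with earlier results of these data known. All members are named, and of each other list of tubulin or microtubule genes the 4 with the smallest unadjusted p. CKAP2 and EML4 were named in addition because their groups did not overlap. Values of TUBG1, TUBG2 and TTC5 are also given outside that rule. Alternatives were quantile normalization, median centring, probe sets above the median level, a variance trend with robust estimation, 1 probe set per gene, constant probe sets left out, a replicate block and leaving out each array.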

Additional observations from a re-analysis of the deposited data

How the results depend on the processing

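No isotype passed the adjusted threshold in any of the 13 alternatives, and the lowest limma adjusted p of an isotype was 0.593, for TUBA1A with a variance trend and robust estimation. That setting called 4 of all probe sets, against 0 with a constant prior, and the other 12 called 0. The median difference of the isotypes ran from -0.16 to 0 when 1 array was left out, where 0 is the constant TUBA1B. Of 104 recomputed differences of the 8 varying isotypes 95 kept their direction. The 9 that turned all came from leaving out 1 array, with ranges of -0.0457 to 0.38 for TUBA4A, -0.11 to 0.0286 for TUBB2A, -0.27 to 0.0454 for TUBB4B and -0.20 to 0.0022 for TUBB6. The count of isotypes with a lower EP300 mean, 7 of 8, ran from 4 to 7 without 1 array. The count with all EP300 arrays below all empty-vector arrays, 3, was 1 with quantile normalization, and ran from 3 to 5 without 1 array, where fewer arrays make separation easier. These 2 counts, and the median of the folding list (0.22, and 0.14 to 0.22 over the 13 alternatives), were added to the alternatives after seeing the data. With the replicate number as a block, 0 probe sets and 0 isotypes passed, the median difference was -0.13 and the counts were 7 and 3. Deviations of same-numbered arrays from their group means correlated at -0.0015, -0.0053 and -0.0089 over all probe sets. No pairing by number was seen at that scale, and pairing in part of the genes is not excluded. Causes of these changes were not tested. The fit without 1 array leaves 2 arrays in a group. Without detection calls, values near the lower quartile and in the highest range limit what the differences show.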
